A study of Papilio xuthus with 10 samples.

Results

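The egg of the swallowtail butterfly *Papilio xuthus* was compared with the pupa of each sex by RNA sequencing of whole bodies. The comparison used 3 of the 10 libraries of the developmental series (egg, female pupa and male pupa), each a stage and sex with 1 library. These libraries were chosen by stage and sex, with earlier results of these data known. By the study's methods several eggs were pooled for the egg library, as were larvae of the 1st and 2nd instars, and each pupal library came from 1 animal. The age of eggs and pupae within their stage is not given in the sources used here. The labels name no allele and no treatment for any of them. The series also holds larval instars 1 to 5 (each instar ends with a moult) and adults of both sexes, 7 libraries that were used only to place the egg and pupal genes in development.

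Butterflies pass through complete metamorphosis. The embryo builds the larval body inside the egg shell, whereas the pupa breaks down much of that body and builds the adult from imaginal discs and other progenitor cells. Neither stage feeds, and both live on stored reserves and lay down new cuticle. The deposited table gives identifiers (RR46 numbers) without gene names, and 0 of them matched the 13139 genes that RefSeq annotates. No function can therefore be given for a gene, no marker of a tissue could be checked, and at most 2 identifiers per direction are printed for each comparison.

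Values are RPKM, the reads of a gene divided by its length in kilobases and scaled by the library total. Library totals, read back from the RPKM, were 34949416 (egg), 32549310 (female pupa) and 35161755 reads (male pupa). For a gene of 1 kb the limit that a count of 0 allows, 3 reads, was an RPKM of 0.0858, 0.0922 and 0.0853. The 10 most abundant genes held 13.6%, 14.0% and 15.7% of summed RPKM in the same order. Reads at genes were 79.2% to 86.3% of these totals but 124% to 154% in instars 2 to 5, so that levels in those instars stand on another footing, and the part this has in a comparison with them was not tested. The egg library was very close to that of the 1st instar. Of 6339 genes with 1000 reads or more in these 2 libraries together, 0 differed 4-fold or more. The main counts were therefore also taken with the 1st instar. Given this closeness those counts are no independent check of the egg, and the cause of the closeness was not tested.

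The main question was which genes were set differently in both pupae relative to the egg. A gene was counted as higher or lower where both pupae lay on the same side of the egg and the nearer one was at least 2 away in log2(RPKM + 1), which is 4-fold for well-expressed genes and more for weak ones. Of 13573 genes that reached an RPKM of 1 in any of the 3 libraries, 435 were higher in both pupae (3.20%) and 1194 were lower (8.80%), so that lower genes made up 73.3% of the 1629. In whole bodies, fewer cells of a type and less RNA per cell cannot be told apart. Lower genes also differed more. The median gap between the egg and the nearer pupa was 3.26 for lower genes and 2.78 for higher ones, and 278 lower genes (23.3%) against 44 higher genes (10.1%) were 5 or more away. The remaining genes comprised 10656 within 2 of the egg in both pupae (78.5%), 1284 past 2 in 1 pupa only and 4 with the pupae on opposite sides.

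With 1 library per stage and sex there is no replicate error and no test was made. The pupae are single animals that differ in sex and are not replicates. The median gap between pupae was 0.43 in higher genes, 0.22 in lower genes and 0.30 over all genes tested. Lower genes were near 0 in both pupae (median levels of 0.93 and 0.87), which leaves little room for a gap. The gaps are therefore not comparable between higher and lower genes. At any gap 5482 genes (40.4%) had both pupae above the egg and 6181 (45.5%) had both below, with medians over all genes of -0.05 for the female pupa minus the egg and -0.08 for the male pupa. Both medians turned positive with the libraries scaled to the same upper quartile. Required on both sides of egg and 1st instar, 378 genes were higher and 1038 lower.

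**Figure D1:**
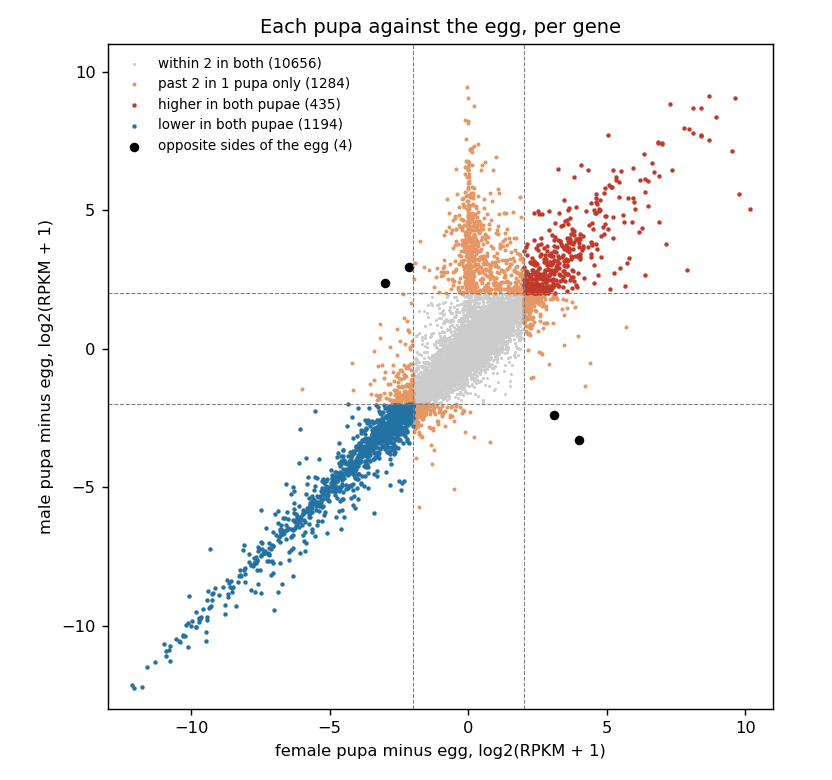
Difference of each pupa from the egg in log2(RPKM + 1), female pupa on the x axis and male pupa on the y axis, 1 point per gene, with dashed lines at 2 in either direction. The 1194 lower genes lie along the diagonal down to about 12 below the egg, the 435 higher genes scatter more widely, and a column of genes is higher in the male pupa with the female pupa close to the egg.

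Strongly expressed genes were counted most often. Among the 233 genes whose highest RPKM was 1000 or above, 17.6% were higher and 24.5% lower in both pupae. The shares declined to 4.16% and 10.4% between 30 and 100 and to 1.32% and 6.75% between 3 and 10. Below an RPKM of 3 no gene can reach the threshold. Weak genes above that need a larger fold than strong ones, so part of this decline is built into the rule. Gene length, read back as the smallest that the values allow, had a median of 879 bp in higher genes, 880.5 bp in lower genes and 1023 bp in all genes tested.

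In terms of presence, 10268 genes were detected (RPKM of 1 or above) in egg and pupae alike. A further 651 were detected in both pupae and not in the egg, and 1153 in the egg and in neither pupa. Most of these were weak, with a median RPKM of 2.14 in the lower pupa for the former and of 4.35 in the egg for the latter. The imbalance depended on the female pupa and on the definition of detection. Without the female pupa the numbers were 1406 and 1407, and with more than 3 reads as detection they were 494 and 548. By the threshold of 2, 136 of the 651 were higher and 568 of the 1153 lower. Complete absence of reads was rarer. Among higher genes 16 had 0 reads in the egg, with a median RPKM of 10.3 in the lower pupa. Among lower genes 73 had 0 reads in both pupae, with a median of 19.2 in the egg.

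Among the genes higher in both pupae, the widest gap belonged to RR46_06806. Its RPKM was 2.55 in the egg (exact 95% interval 2.11 to 3.04), 2806 in the female pupa (2790 to 2821) and 1889 in the male pupa (1877 to 1902). It was thus 1101-fold higher in the female pupa (922 to 1327) and 742-fold higher in the male pupa (621 to 894), and outside the pupae its highest value was 41.5, in the 4th instar. RR46_11756 had 0 reads in the egg, 415 in RPKM in the female pupa (407 to 424) and 552 in the male pupa (543 to 561). Set against 3 reads in the egg library, this is at least 3469-fold and 4611-fold higher. This gene was already at 278 in the 5th instar, and at 3.26 or less in the other libraries outside the pupae. It was thus shared by the last larval instar and the pupa.

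The most abundant gene of the higher group was RR46_02275, with a recovered length of 402 bp. It had an RPKM of 149 in the egg (143 to 156), 24334 in the female pupa (24250 to 24418) and 13038 in the male pupa (12979 to 13098). It ranked first of all genes in the female pupa, where it held 2.34% of summed RPKM, and held 1.16% in the male pupa. Its other 7 values lay between 134 and 438, so that both pupae stood far above an otherwise even profile. The second in abundance, RR46_05812, was of a different kind. It was already at 2772 in the egg and was 4.18-fold higher in the female pupa and 4.62-fold in the male pupa, just past the threshold, with 7284 in the female adult.

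Expression in the pupa above any other stage was examined with all 10 libraries. Of the 435 higher genes, 282 (64.8%) had both pupae above the 8 other libraries, 131 of them by 1 or more and 54 by 2 or more. The egg lies below both pupae by the choice of these genes, and the 1st instar was nearer the egg in all 435. No such share over all genes tested was taken, so the 64.8% is a description of the chosen genes only. The gene with the largest such gap was RR46_04345, at 1314 in the female pupa (1306 to 1323) and 589 in the male pupa (584 to 594) against 2.19 in the egg and the 1st instar and 0.582 or less in the other 6 libraries. RR46_12191 followed, at 341 in the female pupa (332 to 350) and 204 in the male pupa (197 to 210), with 0 reads in the egg and at most 0.964 elsewhere, in the male adult. Outside the pupae both were weak but not absent, with 41 reads of RR46_04345 and 15 reads of RR46_12191 in the male adult.

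The highest of the 10 values was that of the female pupa in 175 higher genes (40.2%) and of the male pupa in 160 (36.8%). Over all genes tested these shares were 13.8% and 11.8%, and the choice of the genes favours the pupae. The male adult was highest in 42 (9.66%), below its 14.8% of all genes tested. Part of the higher genes were also expressed in other stages. Instars 2 to 5 lay nearer the lower pupa than the egg in 78, 117, 146 and 124 of the 435 genes. The female and male adult did so in 168 and 216. No share over all genes tested was taken for these or the next counts. The 5th instar was 2 or more below the lower pupa in 236 of the 435 genes and at or above it in 42. At least 1 adult was at or above the lower pupa in 102 genes, and both adults were 2 or more below it in 112. On the log2(RPKM + 1) scale the median level of the higher genes was 1.90 and 2.03 in egg and 1st instar, 3.13 in the 5th instar, 5.72 and 5.63 in the female and male pupa, and 3.09 and 3.85 in the female and male adult. Over all genes tested the same medians were 3.67, 3.35, 2.67, 3.42, 3.46, 3.45 and 3.31. The egg and pupal medians follow from the way the genes were chosen. Of the libraries that took no part in the choice, the 1st and 2nd instars and the female adult had a lower median for these genes than for all genes tested, and instars 3 to 5 and the male adult a higher one.

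**Figure D2:**
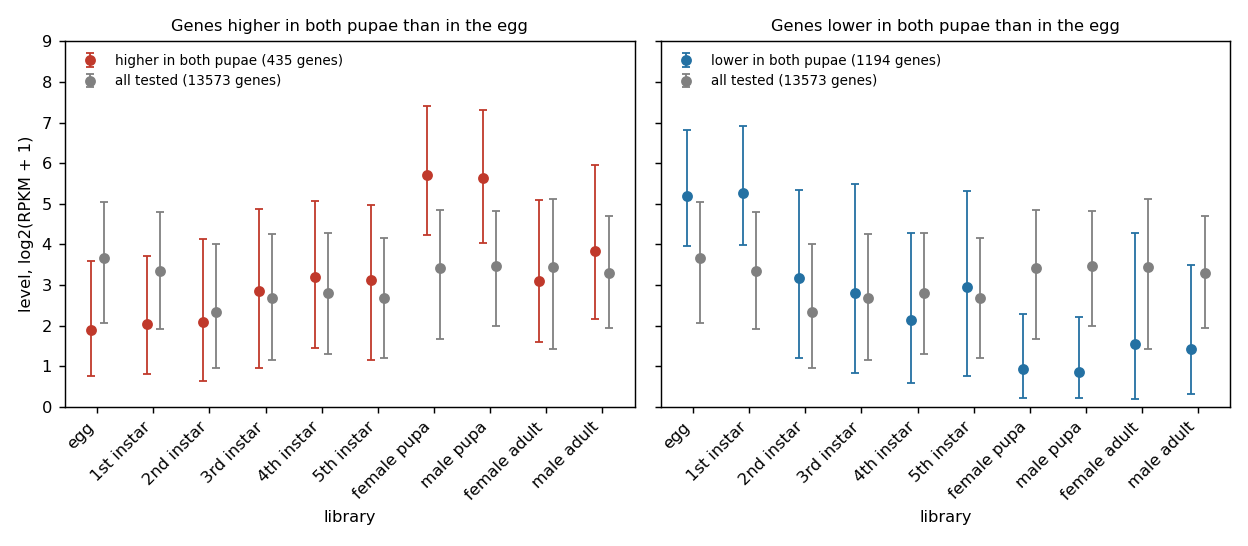
Level in log2(RPKM + 1) of genes higher (left) and lower (right) in both pupae than in the egg, in each of the 10 libraries, with all 13573 genes tested in grey; points are medians over genes and bars run from the lower to the upper quartile, not an error between animals. Higher genes lie farthest above the grey medians in the pupae (medians 5.72 and 5.63), and lower genes in the egg and 1st instar (5.20 and 5.27).

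Genes lower in both pupae reached the largest differences of the comparison. RR46_09015 had an RPKM of 4496 in the egg (4468 to 4523) from 105112 reads, and 0 reads in either pupa. Set against 3 reads per pupal library, it was at least 32631-fold lower in the female pupa and 35250-fold lower in the male pupa. The 1st instar had 4016, and later libraries at most 1.93. RR46_02166 had 5579 in the egg (5545 to 5613), 0.288 in the female pupa (0.0934 to 0.671) and 0.160 in the male pupa (0.0329 to 0.467), from 5 and 3 reads. RR46_01417 was similar, with 4731 and 3538 in egg and 1st instar and with 3 reads in the female pupa and 0 in the male pupa. RR46_01417 and RR46_09015 had the largest gaps of egg and 1st instar over the 8 other libraries.

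The most abundant lower genes kept a clear signal in the pupae. RR46_04554 had an RPKM of 14821 in the egg, 581 in the female pupa (573 to 589) and 1404 in the male pupa (1392 to 1416), that is 25.5-fold and 10.6-fold lower. It was far higher in the larvae than in the egg, at 33905 in the 1st instar and 87012 in the 5th. RR46_10298 was at 8926 in the egg, 505 in the female pupa (495 to 516) and 224 in the male pupa (218 to 231), with 7981 in the male adult and 299 in the female adult. RR46_04554 was also at 7182 in the male and 2264 in the female adult, and RR46_10298 at 5587 in the 1st instar. Both genes of the egg were thus shared with the 1st instar and the male adult, and RR46_04554 also with the later instars.

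**Figure D3:**
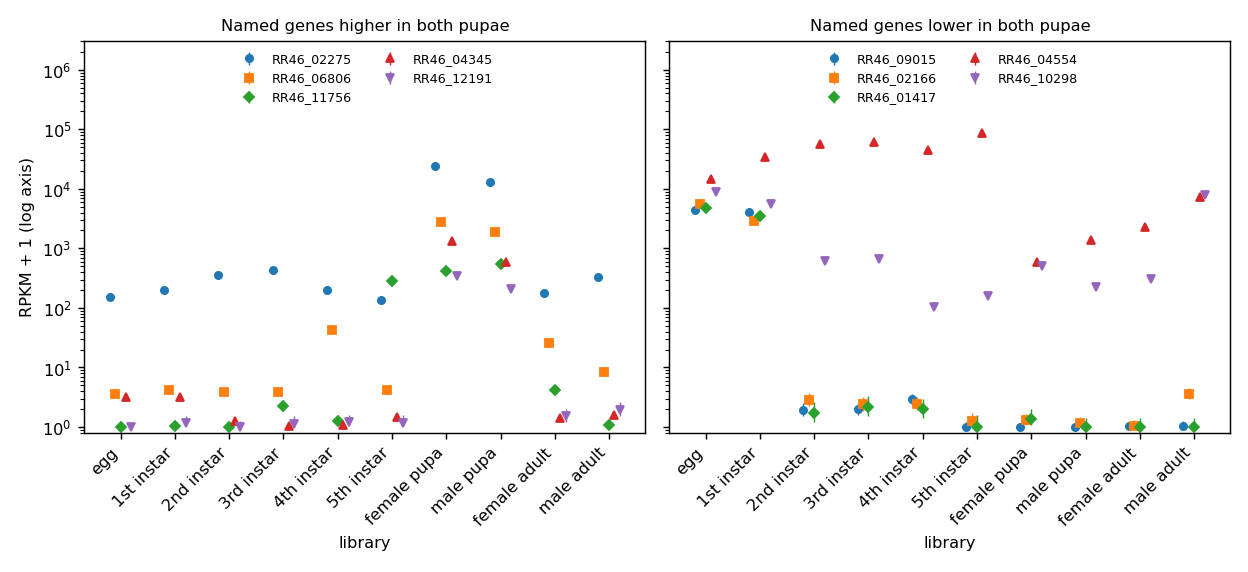
RPKM + 1 on a log axis of 5 named genes higher (left) and 5 lower (right) in both pupae, in each of the 10 libraries, with exact 95% intervals that cover counting error only and are mostly smaller than the points. RR46_04345 and RR46_12191 reach 204 or more in the pupae and stay below 3 elsewhere, while RR46_09015, RR46_02166 and RR46_01417 reach 2876 or more in the egg and 1st instar and stay below 3 elsewhere.

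The highest of the 10 values was in the egg for 333 lower genes (27.9%) and in the 1st instar for 271 (22.7%). Over all genes tested these shares were 11.9% and 6.63%. The choice of the genes favours the egg and keeps both pupae from being highest. The 2nd, 3rd and 5th instars were highest in 129, 118 and 111 lower genes (10.8%, 9.88% and 9.30%). Over all genes tested their shares were 4.94%, 3.59% and 5.39%. The female adult was highest in 128 lower genes (10.7%), below its 22.1% of all genes tested. Lower genes divided by what the larvae did after the 1st instar. In 442 of the 1194 (37.0%) instars 2 to 5 were all 2 or more below the egg, in 460 (38.5%) at least 1 of these instars was at or above the egg, and 292 lay between. The first kind, set by instars 2 to 5 alone and not by the adults, is here called early genes. Their median level was 5.71 and 5.48 in egg and 1st instar, between 0.62 and 0.95 in instars 2 to 5, and 0.93 and 0.81 in the female and male pupa. The second kind, for which 1 instar of 2 to 5 at or above the egg was enough, is here called larval. Its median was 4.98 and 5.47 in egg and 1st instar, stood at 5.73, 5.89, 4.15 and 5.78 in instars 2 to 5, and was 0.69 and 0.68 in the female and male pupa. The 4th instar had the lowest of these larval medians. For both kinds the medians of egg, instars 2 to 5 and pupae follow largely from the definitions. The 1st instar took no part in them but was very close to the egg. The division also sets the egg against instars whose levels stand on another footing.

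The adults were set against the egg in early genes and in all other lower genes. The female adult was within 2 of the egg or above it in 193 of the 442 early genes (43.7%), the male adult in 61 (13.8%). For the other 752 lower genes these numbers were 267 (35.5%) and 276 (36.7%). No such share over all genes tested was taken, so the shares describe the chosen genes only. The median level of early genes was 2.52 for the female and 1.10 for the male adult, and that of the larval kind 0.65 and 1.43. Both adults were 2 or more below the egg in 223 early genes. Each sex has 1 adult library, and the difference between the adults was not tested.

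The 2 groups held different shares of summed RPKM in egg and pupae, a contrast that follows from the way the genes were chosen. Genes lower in both pupae accounted for 28.2% of summed RPKM in the egg, 0.782% in the female pupa and 0.790% in the male pupa. Of the 28.2%, early genes held 12.02 and the larval kind 13.4 percentage points. The share was not particular to the egg. Instars 1 to 5 gave the lower genes 31.1%, 38.0%, 26.7%, 7.28% and 24.3%, and the female and male adult 6.20% and 5.89%. Genes higher in both pupae accounted for 2.47% of summed RPKM in the egg, 19.0% in the female pupa and 16.3% in the male pupa. Adults gave them 22.3% (male) and 9.23% (female), and the 5th instar 2.86%. A share of summed RPKM falls where other genes of the library are very abundant.

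The pupae shared most of their lower genes and fewer of their higher genes. The female pupa alone had 1397 lower genes (10.3%) and the male pupa 1388 (10.2%), of which 1194 were common, that is 85.5% and 86.0%. Higher genes numbered 628 in the female pupa (4.63%) and 1137 in the male pupa (8.38%). The 435 common ones were 69.3% of the former and 38.3% of the latter. Without the female pupa the number of higher genes would therefore be 1137 in place of 435.

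Genes higher in the male pupa only numbered 700, against 191 in the female pupa only. By their medians the 700 genes were weak outside the male pupa and male adult. Their median level was 0.20 in the egg and at most 0.19 in the larvae. Pupae had 0.40 (female) and 3.94 (male), and adults 0.40 (female) and 3.48 (male). Some members were abundant elsewhere, since the 700 genes held 2.34% of summed RPKM in the female adult, 2.84% in the male adult, 2.95% in the female pupa and 0.958% in the egg, against 5.83% in the male pupa. In 485 of them (69.3%) the female pupa was below the detection level of 1. In adults, which took no part in the choice of these genes, the male was 2 or more above the female in 438 (62.6%), compared with 9.88% of all genes tested. The 191 genes of the female pupa were of another kind. The male pupa was above the egg in 182 of them and by 1 or more in 155, 13 (6.81%) were undetected there, and the female adult was 2 or more above the male in 6 (3.14%), compared with 9.61% of all genes tested.

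Only 4 genes (0.0295%) had 1 pupa 2 or more above the egg and the other 2 or more below. RR46_02664 was at 10.1 in the egg (9.42 to 10.9), 177 in the female pupa (174 to 180) and 0.122 in the male pupa (0.0556 to 0.231). It was also high in the 2nd, 3rd and 5th instars, at 192, 354 and 603, and below 1 in the adults. RR46_05869 was at 7.12 in the egg (6.14 to 8.20), had 0 reads in the female pupa and reached 40.7 in the male pupa (38.4 to 43.2), with 8.79 in the female and 24.0 in the male adult. With 1 pupa per sex, a difference between sexes, between animals or in the age of the pupae cannot be told apart.

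Lower genes often carried consecutive identifiers. Among the 1179 lower genes whose next number is in the table, 345 (29.3%) were followed by another lower gene, whereas lower genes were 7.90% of the table. For higher genes the values were 75 of 430 (17.4%) and 2.88%, and for genes higher in the male pupa only 121 of 694 (17.4%) and 4.63%. No source used here says that the numbers follow the order of genes in the genome. Lower genes formed 19 runs of 5 or more with 135 members, and higher genes formed 1 run of 5. None of the lower or higher genes was among the near-identical copies of the table. How reads that fit several genes were counted is not given in the sources used here.

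The longest run had 21 lower genes in succession, from RR46_10896 to RR46_10916. The median RPKM over its members was 108 and 149 in egg and 1st instar, then 2.90, 0.219, 0.0700 and 1.58 in instars 2 to 5. Pupae had 0.0554 (female) and 0.0817 (male), and the median was 0 in both adults. Members ranged from 6.47 to 660 in the egg, and the highest pupal value of any member was 7.55. The run ends were RR46_10896, at 29.9 in the egg against 2 reads in the female and 0 in the male pupa, and RR46_10916, at 74.8 in the egg against 0.119 and 0.0999. By the definition above, 15 of the members were early genes.

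The runs, the longest included, were not of a single kind. Of the 135 genes in runs, 59 were early and 62 larval, and 10 of the 19 runs held both. In a run of 8 genes the median level was 10.2 in the egg and reached 14.6 in the 2nd instar, the highest of any run, against 0.19 and 0.57 in the female and male pupa. Another run of 8, which includes RR46_09015, had a median of 8.96 and 8.36 in egg and 1st instar and of 0.73 or less in all later libraries. In a run of 5 genes, all of them early, the median was 7.49 in the egg and 7.98 in the female adult, but 0.22 in the male adult, 0.53 in the female pupa and 0.44 in the male pupa. The run of 5 higher genes, from RR46_14147 to RR46_14151, had short members (381 to 462 bp) with a median RPKM of 2.63 in the egg and of 141 and 210 in the female and male pupa. It was also at 31.3 in the female and 54.4 in the male adult, and at 21.4 in the 4th instar against 0.205 in the 5th. The runs described here other than the longest were picked after their values were seen.

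**Figure D4:**
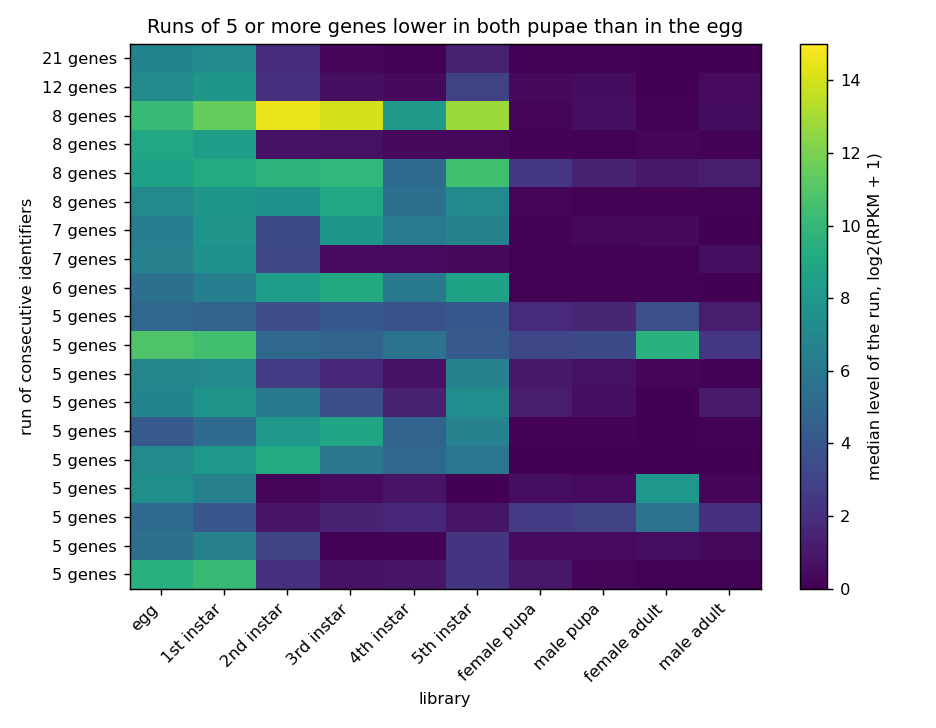
Median level in log2(RPKM + 1) of each of the 19 runs of 5 or more consecutive identifiers that were lower in both pupae than in the egg, 1 run per line (ordered by the number of genes) and 1 library per column. Pupal medians are at most 3.37, and the runs differ in whether instars 2 to 5 or the female adult are bright.

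At the other extreme, 815 genes had their 3 values within 0.25 of each other, and 45 of the genes within that spread reached an RPKM of 100 in each of the 3 libraries. The most abundant was RR46_05795, at 1701 in the egg (1692 to 1709), 1863 in the female pupa (1854 to 1872) and 1794 in the male pupa (1785 to 1802). It was not even over the series, with 8390 in the 4th instar. RR46_04140 had 1018, 959 and 879 in the egg, female and male pupa, and between 631 and 1625 elsewhere.

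The same rule was applied with other libraries in place of the egg, which all share the 2 pupae. The 1st instar gave 555 higher (4.09%) and 1232 lower genes (9.07%), close to the egg. The female adult gave 556 higher (4.24%) and 744 lower (5.67%), and the male adult 576 (4.27%) and 1162 (8.61%). The 2nd instar gave 2022 higher (15.3%) and 855 lower (6.47%), the 3rd 769 (5.86%) and 882 (6.72%), the 4th 822 (6.30%) and 680 (5.21%), and the 5th 1427 (10.9%) and 962 (7.32%). The median difference of all genes was 0.76 and 0.83 for the female and male pupa minus the 5th instar, compared with -0.05 and -0.08 for the egg, so that the balance of higher and lower genes is not comparable between the egg and the 5th instar. No test of the difference between them could be made with 1 library each.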

How the data were processed

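Total RNA of whole bodies was reverse transcribed from poly-A RNA with random primers and sequenced from both ends on an Illumina instrument. The authors deposited RPKM per gene for 10 libraries, mapped to their own assembly and gene set. The submitters' processing notes name TopHat 1.0.12 and 1.4.1. The counter, the use of strand and the treatment of reads with several hits are not given in the sources used here. RPKM takes no account of the composition of a library.

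Library totals, lengths and reads were read back from ratios of RPKM, giving whole reads (tolerance 1e-06) for 15123 genes, 100% of the table. With each total off by 1 or 2 reads, 3 of 500 genes gave whole reads. Lengths and reads are the smallest the values allow. Reads served only for depth, exact Clopper-Pearson 95% intervals and exact conditional intervals of folds, which cover counting error only. A gene at 0 was given 3 reads per library for a fold, written as at least. Folds are of RPKM without a pseudocount, and differences are of log2(RPKM + 1).

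Libraries were grouped by their titles. No test was run. Genes under an RPKM of 1 in all 3 libraries (1550) were left out. The smallest gap counted and the largest not counted both round to 2.00 in either direction. Members and rules were chosen with earlier results of these data known. Near-identical copies (8 clusters, 33 genes) had the same length, at least 100 reads somewhere, and reads that differed by no more than 2% or 3 per library. They were passed over for naming. Named were, in each direction, the 2 genes with the largest gap, the 2 most abundant, the 2 with pupae on opposite sides, the 2 with the largest gap over the 8 other libraries and the ends of the longest run, besides the 2 most abundant alike genes. Python 3.11.15, numpy 2.4.6, pandas 2.3.3 and scipy 1.17.1 were used.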

Additional observations from a re-analysis of the deposited data

Results flagged for a closer look

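The pupae lay on opposite sides of the egg, by 2 or more in log2(RPKM + 1), in 4 genes, so that 1 pupal library was above and the other below the same egg library. The difference between the pupae was not tested, and sex, animal and age cannot be told apart with 1 pupa per sex. RR46_02664 was 4.00 above the egg in the female pupa and -3.31 from it in the male pupa. RR46_08198 was 3.10 above in the female pupa and -2.39 in the male pupa, with an RPKM of 211 in the egg, 1817 in the female pupa and 39.5 in the male pupa. RR46_05869 was -3.02 in the female pupa and 2.36 in the male pupa. RR46_00448 was -2.13 in the female pupa and 2.95 in the male pupa, where an RPKM of 10.9 in the egg stood against 1.73 and 91.5. At the same upper quartile RR46_00448 was at -1.97 in the female pupa and 3 of the 4 genes remained, while all 4 remained at the same sum and at the same median ratio.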

How the results depend on the processing

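For 9 results, 77 alternative values were computed, of which 37 moved past a limit and 40 did not. The limit was 1.5 times for counts and a binomial 95% interval over genes or reads for the rest. A lower difference or pseudocount admits more genes by construction, and other causes were not tested. Higher and lower genes numbered 1558 and 2625 at a difference of 1, 184 and 661 at 3, 231 and 694 with a pseudocount of 5, and 861 higher with a pseudocount of 0.1. Genes with the pupae on opposite sides numbered 38, 1, 1 and 38 in the same order. Leaving out 1 pupa gave 628 to 1137 higher and 1388 to 1397 lower genes, 857 to 1406 genes detected in the later stage only and 1407 to 1439 in the egg only; 1137 and 1406 came without the female pupa. Lower genes outnumbered higher ones under each setting, with a share of 55.0% (without the female pupa) to 78.7%. Scaling by upper quartile, sum and median ratio gave 525, 359 and 473 higher and 1081, 1330 and 1153 lower genes.

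The median difference over all genes changed sign with the scaling. It was 0.081 and 0.11 (female and male pupa minus egg) with upper quartiles made equal, -0.17 and -0.30 with sums made equal, and -0.0031 and 0.011 at the same median ratio. With the 1st instar in place of the egg it was 0.16 and 0.18, and -0.11 for the male pupa among genes reaching an RPKM of 10. With more than 3 reads as detection, 548 genes were found in the egg and in neither pupa. The share of summed RPKM of higher genes in the lower pupa (16.3%) was 17.0% with a pseudocount of 0.1, 44.1% at a difference of 1, 6.65% at 3, 21.3% at the same upper quartile, 16.8% without the 10 most abundant genes of each library, 14.6% with the 1st instar and 17.3% with copies kept once. That of lower genes in the egg (28.2%) was 28.5%, 37.6%, 24.8%, 27.6%, 29.7%, 34.8% and 29.2% in the same order.

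No paired analysis was possible because no test was run and each stage and sex had 1 library. Depth limits statements at weak genes, since 3 reads at 1 kb are an RPKM of about 0.09 in each of the 3 libraries, and counting intervals contain no variation between animals.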
